A study of Homo sapiens with 10 samples.

Results

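The genes described here act in homologous recombination, in the Fanconi anaemia pathway and in the DNA damage checkpoint. They were taken as a fixed list of 36 gene symbols and looked up by symbol in the tables of both assays. All 36 were among the 13279 transcripts of the RNA-Seq table. Of these, 32 were also among the 11258 transcripts that both tables share, and RAD51AP1, FANCB, BLM and EXO1 were in the RNA-Seq table only. The cells were BJ cells, primary human fibroblasts immortalised by expression of hTERT, the catalytic subunit of telomerase. One culture condition was an untreated control and the others were nutlin-3a for 2, 4, 6 or 19 h, where nutlin-3a is a small molecule that blocks the binding of MDM2 to p53. Each condition was profiled by RNA-Seq of poly(A) RNA and by Ribo-Seq, in which the stretches of mRNA covered by ribosomes are sequenced. Each of the 10 groups was 1 library, so no difference had a replicate check and no p-value was computed. All treated libraries of an assay were set against the same control library.

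Homologous recombination repairs a double-strand break by copying an intact sister chromatid. The broken ends are first trimmed by resection, and BRCA1, BRCA2, PALB2 and their partners then help the trimmed strand to invade the sister. The Fanconi proteins recognise crosslinks between the DNA strands, with a core complex that attaches ubiquitin to FANCD2 and FANCI. The kinases ATM and ATR with their partners signal the damage through CHEK2 and CHEK1. Many of these genes are expressed mainly in dividing cells, where E2F factors and the MuvB complex act on their promoters.

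Levels are FPKM, that is read counts divided by the length of the transcript and by the size of the library. A change is the log2 ratio of a treated to the control library within an assay, with values floored at 1 FPKM. A gene was called lower or higher when this ratio reached 2-fold. Because low members lose part of their change to the floor, changes without the floor are also given, each with a counting SE. The counting SE comes from whole reads, which could be worked out from the steps between FPKM values, and covers counting error only. The recovered totals were 23845559 to 27554287 reads in the RNA-Seq libraries and 7744900 to 14460725 reads in the Ribo-Seq libraries, the lowest being that of 19 h. Fewer cells expressing a gene and less RNA per cell cannot be told apart in these libraries. All 11 fibroblast markers were present, with control RNA from 14.8 to 4190 FPKM. Of 5 epithelial markers 2 were in the table, CDH1 at 0.017 FPKM in the control and KRT8 at 12.4 FPKM. Of 4 leukocyte markers 3 were in the table, with CD68 at 62.9 FPKM and the lowest at 0.11 FPKM, and of 3 endothelial markers VWF alone was, at 0.095 FPKM. The treatment check was plain, since RNA of the p53 target CDKN1A went from 68.6 FPKM in the control to 1316 FPKM at 19 h and that of MDM2 from 14.9 to 259 FPKM.

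Promoter windows from RefSeq (GRCh38.p14, 250 bases before to 50 after a start site) were found for 33 of the 36 genes, in 44 windows, and the windows of NBN, FANCI and RAD54B were not used. Windows were searched on both strands for the E2F site (TTTCCCGC, TTTCGCGC, TTTGCCGC or TTTGGCGC), the CHR element (TTTGAA or TTCGAA) and the CCAAT box (CCAAT), none of which contains another. Stretches upstream of the start are shown for 4 members whose RNA was at least 2-fold below the control at 19 h and which hold these motifs, and for 2 members whose RNA was not and whose stretch holds none. These were picked as examples and the motifs do not sort the members, since ATM and FANCF hold CCAAT boxes and were not 2-fold lower, and BARD1, BRCA2, FANCE, FANCG and FANCL were lower and hold none of the motifs. Capitals mark a motif or its reverse complement. The FANCA stretch is chr16:89816672-89816827 on the minus strand, with an E2F site and a CCAAT box. The FANCC stretch is chr9:95317740-95317889 on the minus strand, with a pair of E2F sites. The UBE2T stretch is chr1:202341997-202342096 on the minus strand, with a CHR element and a pair of CCAAT boxes. The BRIP1 stretch is chr17:61863549-61863653 on the minus strand, with 3 CCAAT boxes read on the opposite strand. RAD50 is shown at chr5:132556817-132556916 and RAD51C at chr17:58692413-58692512, both on the plus strand.
FANCA: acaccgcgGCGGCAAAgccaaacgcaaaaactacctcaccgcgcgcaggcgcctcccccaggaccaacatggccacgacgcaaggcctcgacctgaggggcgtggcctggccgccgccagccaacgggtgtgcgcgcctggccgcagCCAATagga
FANCC: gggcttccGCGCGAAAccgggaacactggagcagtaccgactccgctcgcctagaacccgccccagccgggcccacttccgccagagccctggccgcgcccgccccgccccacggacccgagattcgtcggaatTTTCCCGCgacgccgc
UBE2T: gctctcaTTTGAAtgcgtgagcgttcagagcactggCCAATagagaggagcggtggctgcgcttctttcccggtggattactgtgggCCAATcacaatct
BRIP1: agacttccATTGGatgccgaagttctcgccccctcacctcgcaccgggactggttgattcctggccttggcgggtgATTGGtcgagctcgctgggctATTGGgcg
RAD50: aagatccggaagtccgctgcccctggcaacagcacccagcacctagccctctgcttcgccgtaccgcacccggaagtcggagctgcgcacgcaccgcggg
RAD51C: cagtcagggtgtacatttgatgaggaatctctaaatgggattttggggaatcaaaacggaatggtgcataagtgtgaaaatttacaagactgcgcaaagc

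An E2F site was in 7 of the 44 member windows (15.9%) and in 3.31% of the 35116 windows of the table. A CCAAT box was in 23 member windows (52.3%) against 34.6% of all windows, and a CHR element in 5 (11.4%) against 16.4%. The genes with an E2F site were EXO1, FANCA, FANCC, FANCD2, RMI1, TOPBP1 and XRCC2. RNA at 19 h was at least 2-fold below the control for all 7 of these and for 21 of the 26 members whose windows held no such site. The same counts were 4 of 5 with and 24 of 28 without a CHR element, and 16 of 18 with and 12 of 15 without a CCAAT box. These counts describe letters in fixed windows and say nothing of the binding of a factor.

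RNA of 34 of the 36 members was below the control at 2 h, by small amounts, and that of 30 was lowest at 19 h. The shares of all transcripts for these counts were not computed. At 2 h the median log2 change without the floor was -0.18 for the 36 and -0.06 for all 13279 transcripts, so values below the control were common. With a minimum of 5 FPKM in 1 or more RNA-Seq libraries, 28 members could be tested. Of these, 0 were at least 2-fold lower at 2 h, where 0.0118% of the 8467 transcripts tested were. The 4 h library had 5 of 28 lower against 0.791% of all, that of 6 h had 20 of 28 against 5.47%, and that of 19 h had 23 of 28 against 7.05%. None of the 28 was at least 2-fold higher at 19 h, where 2.67% of all were. The median log2 change of the 28 was -0.17, -0.62, -1.65 and -2.07 at 2, 4, 6 and 19 h, and the median of all transcripts tested lay between -0.08 and 0.01. The filter let through 8 members only by their control or 2 h value, so these had to be lower later. RAD50 and RAD51C passed it by their 6 h value alone, so that value had to lie above their control. Without any filter, 30 of the 36 were at least 2-fold lower at 19 h, against 5.53% of the 13279 transcripts of the table. The exceptions were RAD50, NBN, RAD51C, FANCF, ATM and ATR.

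**Figure D1:**
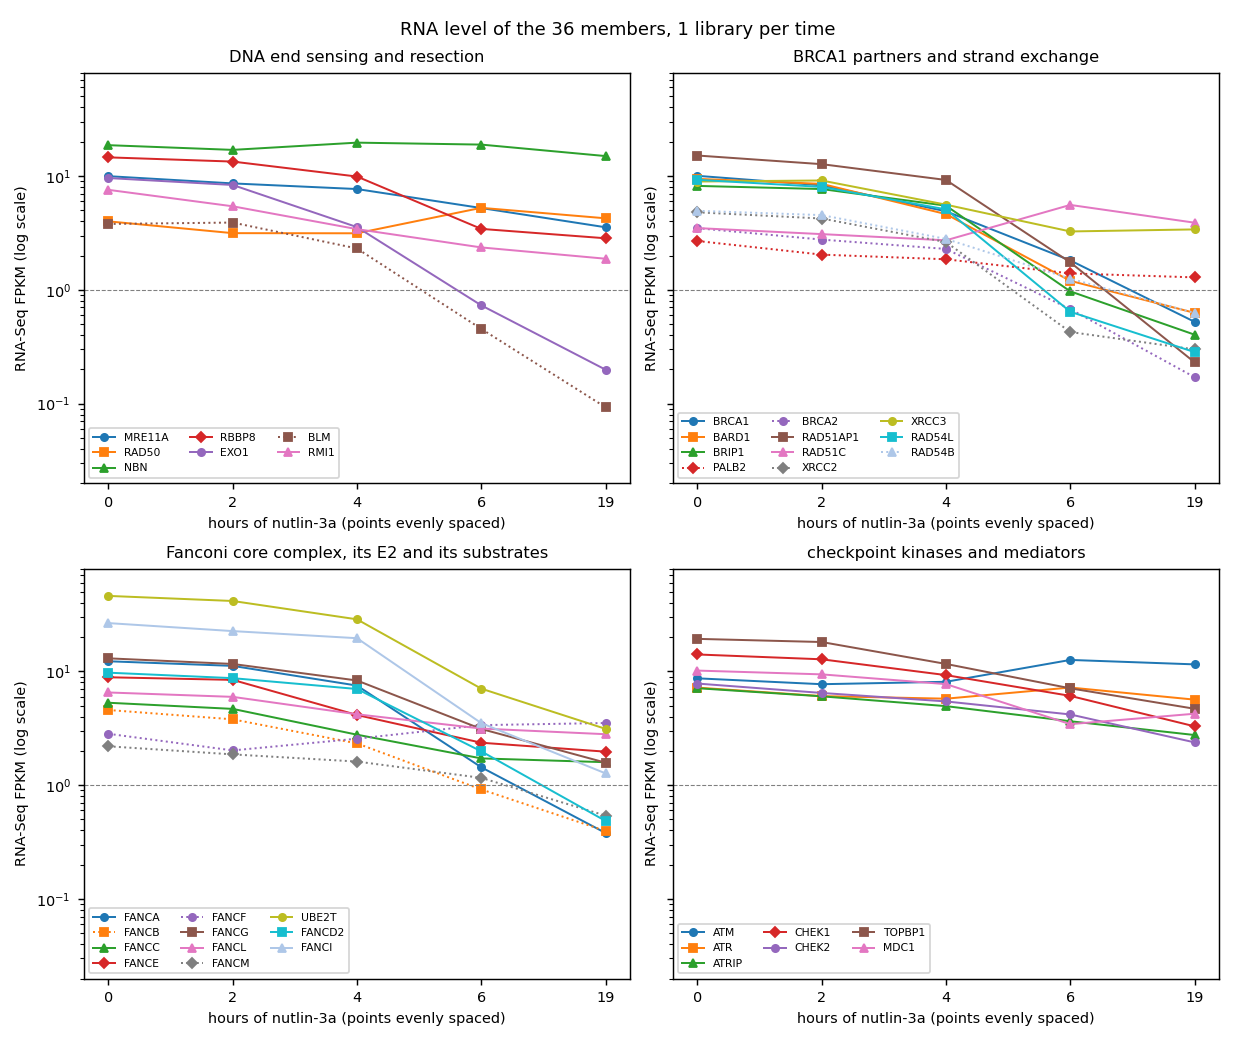
RNA level in FPKM (log axis) of the 36 members in the 5 RNA-Seq libraries, 1 point per library, in a panel for each of the 4 roles; dotted lines are members below 5 FPKM in every RNA-Seq library and the dashed line is the floor of 1 FPKM. Most lines bend down between 2 and 6 h, and those of NBN, RAD50, RAD51C, FANCF, ATM and ATR stay near their control level.

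The steepest part of the decline differed between members. After 2 h, the largest drop in RNA came between 2 and 4 h for 4 of the 28 tested members, between 4 and 6 h for 13 and between 6 and 19 h for 11. The share of all transcripts by interval of largest drop was not computed. The median step of the 28 was -0.47, -0.80 and -0.58 on the log2 scale for these intervals, the last of which was much longer. For all transcripts tested the median step was -0.03, 0.06 and -0.09. The 11 with their largest drop after 6 h include RAD50, NBN, RAD51C, ATM and ATR. These genes were not 2-fold lower at 19 h, so for them the largest drop marks no decline of that size.

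**Figure D2:**
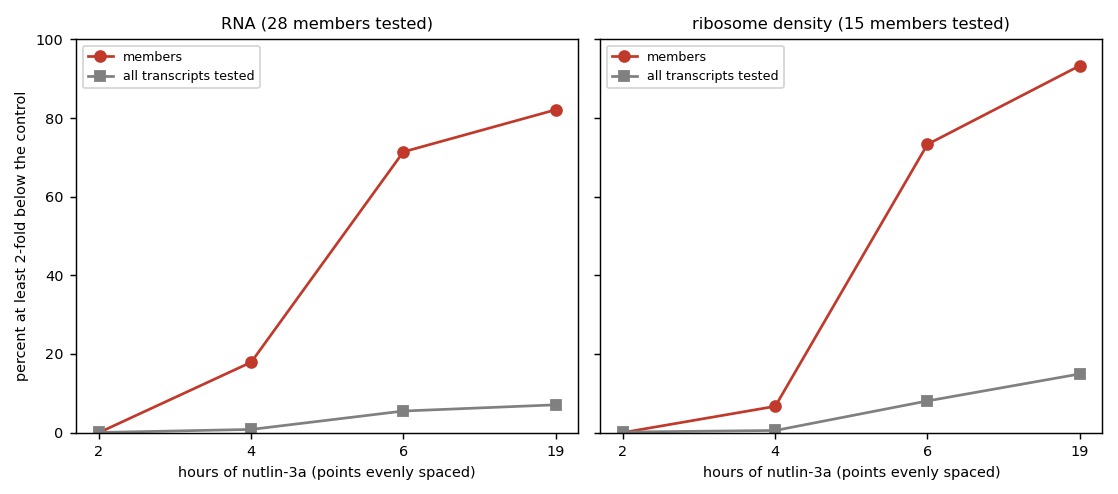
Percent of members and of all transcripts tested that were at least 2-fold below the control at each time, for RNA (28 members, left) and ribosome density (15 members, right). In both panels the line of the members lies above that of all transcripts from 4 h on and is steepest between 4 and 6 h.

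Genes of end sensing and resection diverged. EXO1, a nuclease that lengthens the resected tract, had 9.6, 8.35, 3.56, 0.731 and 0.199 FPKM of RNA in the control and at 2, 4, 6 and 19 h. BLM, a helicase that works with it, had 3.79, 3.90, 2.31, 0.454 and 0.093 FPKM in the same order. Both had lost most of their RNA by 6 h. Without the floor EXO1 was 48.2-fold lower at 19 h (log2 -5.59, counting SE 0.34) and BLM 40.8-fold lower (-5.35), for which reads could not be recovered. RMI1, a partner of BLM, fell from 7.56 to 1.88 FPKM at 19 h and RBBP8, which starts resection, from 14.6 to 2.84 FPKM. The 3 subunits of the MRN complex, which senses the broken end, did not move together. MRE11A, its nuclease, had 9.97, 8.61, 7.68, 5.23 and 3.55 FPKM. NBN, its regulatory subunit, had 18.7, 17, 19.6, 18.9 and 15 FPKM. RAD50, the subunit that bridges DNA ends, had 4.00, 3.15, 3.14, 5.25 and 4.25 FPKM. At 19 h RNA of MRE11A was called lower (-1.49, counting SE 0.11), that of NBN was at -0.32 (0.046) and that of RAD50 at 0.09 (0.082). Of the 6 tested members of this role, 4 were lower at 19 h, with a median of -1.75.

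Most of BRCA1, its partners and the strand exchange factors ended below 1 FPKM of RNA at 19 h. BRCA1, a ubiquitin ligase subunit and scaffold, had 10.0, 8.29, 4.90, 1.81 and 0.524 FPKM in the control and at 2, 4, 6 and 19 h. BARD1, which pairs with BRCA1 in the ligase, followed it with 9.44, 8.54, 4.63, 1.20 and 0.628 FPKM. BRIP1, a helicase that binds BRCA1, had 8.19, 7.68, 5.49, 0.970 and 0.404 FPKM. All 3 had their highest value in the control and were under 1 FPKM at 19 h. Without the floor the changes at 19 h were -4.26 (counting SE 0.16) for BRCA1, -3.91 (0.16) for BARD1 and -4.34 (0.21) for BRIP1. RAD51AP1, which stimulates strand invasion, had 15.1, 12.7, 9.23, 1.75 and 0.231 FPKM in the same order. Its level was 65.5-fold lower at 19 h (-6.03, counting SE 0.40), the largest of the 36. RAD54L, a translocase that acts in strand exchange, went from 9.27 to 0.284 FPKM and its relative RAD54B from 4.95 to 0.626. XRCC2, which also acts in strand exchange, went from 4.80 to 0.30 FPKM, and BRCA2, a mediator of strand exchange, from 3.48 to 0.171 FPKM. PALB2, which links BRCA1 to BRCA2, was low throughout, with 2.69 FPKM in the control and 1.29 at 19 h. XRCC3 fell less, from 8.95 to 3.40 FPKM (-1.40, counting SE 0.11).

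RAD51C, which pairs with XRCC3, was not called lower in RNA at any time. Its RNA was 3.49, 3.09, 2.72, 5.57 and 3.89 FPKM in the control and at 2, 4, 6 and 19 h, highest at 6 h. Only the 6 h library brought it over the RNA filter of 5 FPKM. The change was 0.68 at 6 h and 0.16 (counting SE 0.19) at 19 h. Of the 7 members of this role that were tested, 6 were lower at 19 h, and RAD51C was the exception. The median of the 7 was -3.21 with the floor and -4.26 without it.

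In the role of the Fanconi core complex, its E2 and its substrates, every tested gene fell. The only member of this role without a lower value at 19 h was FANCF, which was below the filter. UBE2T, the E2 enzyme that passes ubiquitin to FANCD2 and FANCI, was the most abundant member in the control. It had 46.0, 41.5, 28.6, 7.05 and 3.12 FPKM in the control and at 2, 4, 6 and 19 h. FANCI had 26.5, 22.6, 19.5, 3.51 and 1.27 FPKM, and its partner FANCD2 had 9.73, 8.71, 6.99, 1.98 and 0.485 FPKM. For UBE2T and FANCI the drop between 4 and 6 h was the largest of the course, and FANCD2 dropped by a similar amount again after 6 h. At 19 h the changes without the floor were -3.88 (counting SE 0.17) for UBE2T, -4.39 (0.12) for FANCI and -4.33 (0.18) for FANCD2. FANCA, a subunit of the core complex, had 12.3, 11.2, 7.50, 1.44 and 0.380 FPKM, a 32.3-fold difference at 19 h. Other core subunits fell less. FANCG went from 13.0 to 1.58 FPKM, FANCE from 8.87 to 1.97, FANCC from 5.30 to 1.59 and FANCL, the subunit with ligase activity, from 6.52 to 2.80. FANCB went from 4.57 to 0.396 FPKM and FANCM, a translocase that recruits the core complex, from 2.19 to 0.540, both below the filter. FANCF, an adaptor of the same complex, had 2.83, 2.02, 2.56, 3.37 and 3.51 FPKM, also below the filter, with a change of 0.31 (0.13) at 19 h. All 8 tested members of this role were lower at 6 h and at 19 h. Their median at 19 h was -3.16 with the floor and -3.46 without it.

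Among the checkpoint genes the kinases at the top of the cascade and their effectors differed. ATM, which responds to double-strand breaks, had 8.68, 7.71, 8.09, 12.6 and 11.5 FPKM of RNA in the control and at 2, 4, 6 and 19 h. ATR, which responds to single-stranded DNA, had 7.19, 6.06, 5.75, 7.21 and 5.64 FPKM. Neither passed the 2-fold call at any time. ATM was at 0.41 (counting SE 0.036) and ATR at -0.35 (0.056) at 19 h. CHEK1, the kinase below ATR, had 14.1, 12.8, 9.26, 6.08 and 3.29 FPKM. CHEK2, the kinase below ATM, had 7.81, 6.46, 5.44, 4.18 and 2.38 FPKM. Both effector kinases were called lower at 19 h, CHEK1 by -2.10 (0.14) and CHEK2 by -1.72 (0.15). ATRIP, the partner of ATR, went from 7.11 to 2.76 FPKM and TOPBP1, which activates ATR, from 19.3 to 4.69. MDC1, a scaffold at marked chromatin, was lowest at 6 h with 3.44 FPKM, from 10.2 in the control, and had 4.24 at 19 h. Of the 7 members of this role, 5 were lower at 19 h and 3 at 6 h, and the median change at 19 h was -1.37.

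Ribosome density, the Ribo-Seq FPKM of a gene, was read for members that reached 5 FPKM once or more in RNA-Seq and once or more in Ribo-Seq. Only 15 members passed this, among 7015 transcripts. In RNA 10 of these 15 were lower at 6 h (5.39% of all 7015) and 13 at 19 h (7.1%). In density 0 of 15 were lower at 2 h (0.128% of all), 1 at 4 h (0.527%), 11 at 6 h (8.04%) and 14 at 19 h (14.9%). This filter let through 6 of the 15 only by their control or 2 h density, so their later densities had to lie below 5 FPKM. For FANCD2 and MDC1, with 4.935 and 4.702 FPKM in the control, this did not force a value below the control. Without any filter 23 of 32 were lower in density at 19 h, against 12.4% of all transcripts in both tables. Among the 15 that passed the filter, RAD51C was the exception at 19 h, with 6.56 Ribo-Seq FPKM in the control and 8.30 at 19 h. Densities fell for UBE2T from 113 FPKM in the control to 92.1, 77.9, 7.86 and 3.50 at 2, 4, 6 and 19 h, and for CHEK1 from 25.6 to 23.8, 17.4, 4.82 and 2.55 FPKM. FANCI went from 9.81 to 0.653 FPKM at 19 h and TOPBP1 from 5.31 to 0.912 FPKM. NBN had 7.71, 4.84, 7.66, 6.00 and 3.13 FPKM of density, so that it was called lower in density at 19 h (-1.30, counting SE 0.15) and not in RNA. Depth limited these values, since the median member had 184.5 Ribo-Seq reads in the control and 22 at 19 h.

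Across the 32 members in both tables, the changes of RNA and of density without the floor went together at the later times. Pearson's r across genes was 0.023, 0.7, 0.89 and 0.91 in the order of the times, where the points share the control library of their assay and genes are not independent replicates. Density values of low members rest on few reads. At 19 h XRCC2 had 1 Ribo-Seq read, BRIP1 and RAD54L had 2 each and BRCA2 had 3. Their density changes without the floor were -5.57 (counting SE 1.5), -5.65 (1.0), -5.43 (1.0) and -4.27 (0.85). RAD50 was above its control in density at 19 h, with 0.678, 1.04, 0.850, 1.25 and 1.37 FPKM and a change of 1.02 (0.28), and its density was below the filter.

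**Figure D3:**
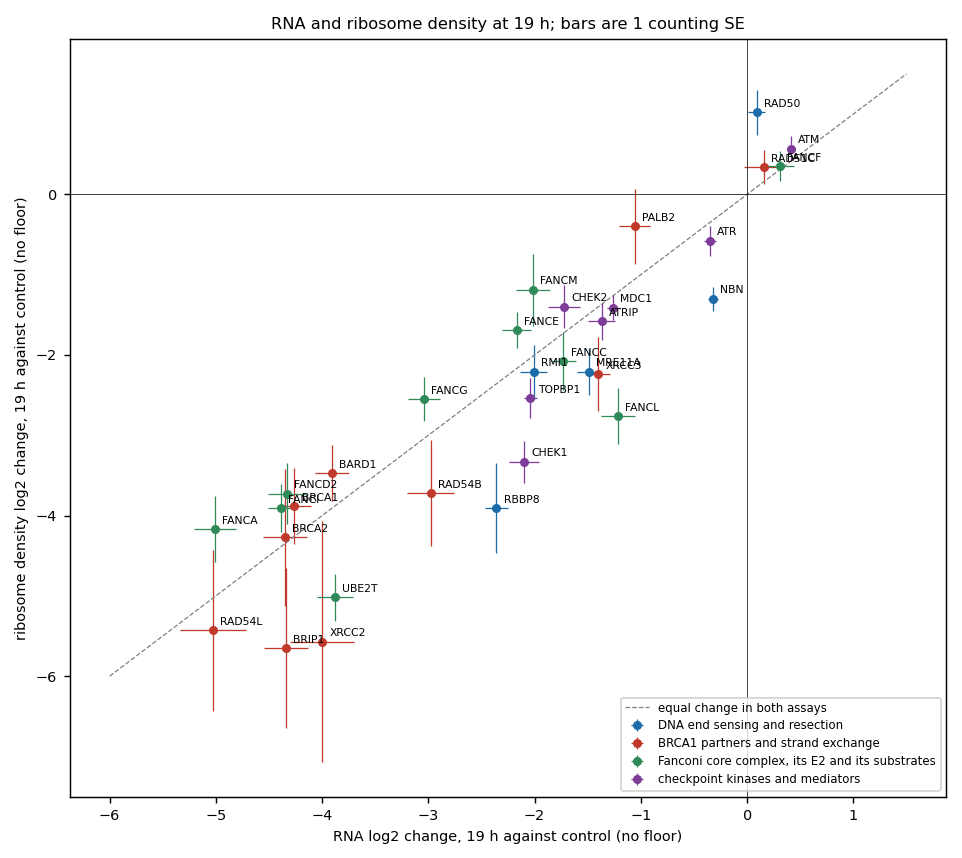
Log2 change at 19 h in RNA (x axis) and in ribosome density (y axis) without the floor, for the 32 members in both tables, with 1 counting SE as bars and colours for the 4 roles; the dashed line marks equal change. Most points lie along the line, and RAD50, ATM, RAD51C and FANCF lie at the upper right. Among the points below the line are NBN, FANCL, CHEK1, UBE2T, RBBP8, BRIP1 and XRCC2. BRIP1 and XRCC2 rest on few Ribo-Seq reads.

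Translational efficiency (TE) is the log2 ratio of the Ribo-Seq to the RNA-Seq value of a time. Of the 15 tested members, TE was at least 2-fold lower in 3 at 6 h (2.54% of all 7015) and in 3 at 19 h (4.21%). It was at least 2-fold higher in 1 at 6 h (3.21%) and in 2 at 19 h (1.94%). At 6 h the lower members were CHEK1, UBE2T and MRE11A, with changes of -1.20 (counting SE 0.20), -1.14 (0.21) and -1.13 (0.26), and the higher was FANCD2 with 1.03 (0.19). At 19 h the lower members were FANCL with -1.55 (0.38), CHEK1 with -1.23 (0.29) and UBE2T with -1.14 (0.34). The higher members at 19 h were FANCA and FANCI, whose floored changes of 1.15 and 1.09 were set by the floor, because 4 of the 15 were then below 1 FPKM in an assay. Without the floor FANCA was at 0.84 (0.45) and FANCI at 0.48 (0.32).

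Over all 32 members without the floor, TE at 19 h lay more than 2 counting SE below the control in 6, where 28.7% of the 11189 transcripts with recovered reads did, and above it in 1, where 18.9% did. These shares are no higher than those of all transcripts, which had a median counting SE of 0.17 against 0.35 for the members. The 6 were FANCL, CHEK1, UBE2T, NBN (-0.98, counting SE 0.16), MRE11A (-0.72, 0.31) and RBBP8 (-1.55, 0.57). The 1 above was RAD50 (0.93, 0.29), whose change rests on its low control density and was 0.37 with the floor and -0.03 with the 2 h library as baseline. At 2 h TE was above the control by this measure in 11 of the 32, against 22.4% of all, and below it in 1, against 13.5%. RAD50 was then at 0.96 (0.28), FANCM at 0.76 (0.30), ATM at 0.66 (0.14), and NBN, the member below, at -0.53 (0.12). The median TE change at 2 h was 0.26 over the 32 and 0.08 over the 15 tested members, and 0.05 over all transcripts in both tables. At 19 h BRCA1 was at 0.38 (0.49) and BARD1 at 0.44 (0.38), which was not distinguishable from the control at this depth.

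TE changes were also set against the length of the transcript. Across the 32 members the change at 19 h and log2 of the length gave a Pearson's r of 0.42 and a Spearman's rho of 0.41, and at 6 h 0.47 and 0.34. At 2 h they were 0.4 and 0.42, and at 4 h -0.11 and -0.019, so the relation was not seen at every time. The 5 members under 2000 nt, which were UBE2T, RAD51C, CHEK1, FANCL and CHEK2, had a median TE change of -1.14 at 19 h, and tested transcripts of this length had a median of -0.16. The 11 members over 5000 nt had a median of 0.38, and tested transcripts of this length had 0.05. The members were taken without the filter and the other transcripts with it. The 5 short members passed the filter on both assays. Of the 11 long ones, RAD50, BRCA1, BARD1, BRCA2, FANCM, ATM and ATR did not, and BRCA2 had 3 Ribo-Seq reads at 19 h. The long medians are thus not from like sets. The part of transcript length in the TE values of single members was not tested.

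**Figure D4:**
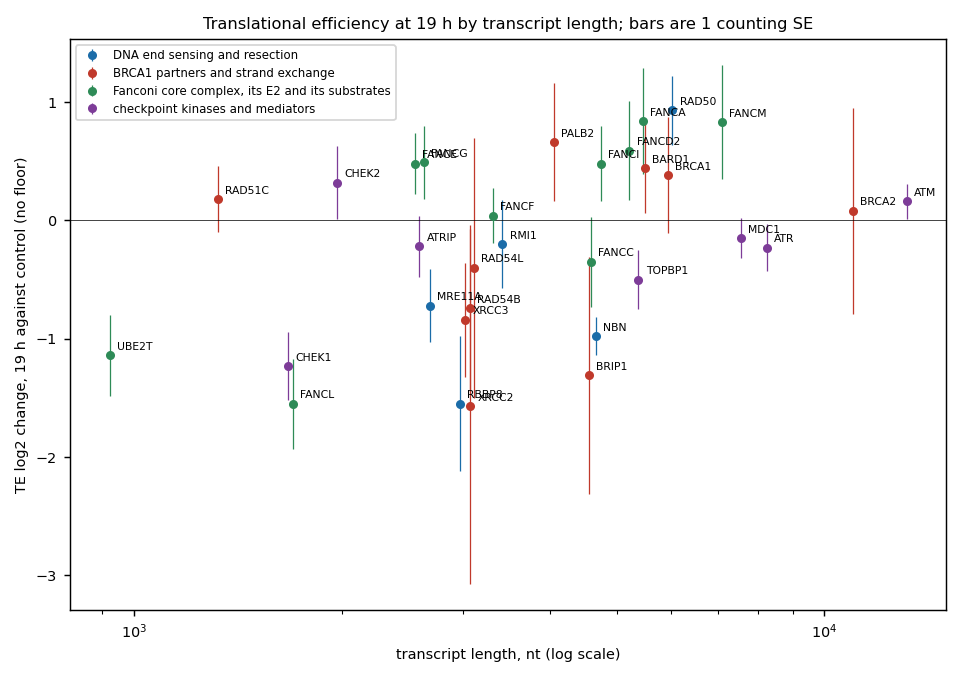
Log2 change of TE at 19 h without the floor (y axis) against transcript length in nt (log x axis) for the 32 members, with 1 counting SE as bars and colours for the 4 roles. Of the 5 members under 2000 nt, UBE2T, CHEK1 and FANCL lie more than 1 log2 unit below the control and RAD51C and CHEK2 lie above it.

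Other genes of the same pathways were taken as lists. Of 48 further homologous recombination, Fanconi and checkpoint genes in both tables, 30 were tested in both assays, and RNA at 19 h was at least 2-fold lower in 16 and higher in 0, where 7.1% and 2.49% of all transcripts were lower and higher. Their median change was -1.06, against -0.07 for all. CLSPN, the adaptor between ATR and CHEK1, went from 16 FPKM of RNA in the control to 0.322 at 19 h, PSMC3IP, a cofactor of strand exchange, from 13.6 to 0.879 and RMI2 from 13.2 to 1.37. The largest positive values of the list were below the 2-fold call, 0.35 for TP53BP1, which holds back resection, and 0.32 for BRE, a subunit of a BRCA1 complex.

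Non-homologous end joining ligates ends without a template. Of its 6 tested genes, 1 was lower in RNA and 0 were higher at 19 h, with a median of -0.64. Among all transcripts tested, 7.1% were lower and 2.49% higher, so 1 call among so few genes says little. The lower one was PRKDC, the kinase of the pathway, with 59.2 FPKM in the control and 24.1 at 19 h. XRCC6 and XRCC5, which form the Ku ring on DNA ends, had changes of -0.66 and -0.61, and XRCC4 had -0.69. POLM, a polymerase that fills gaps, was at 0.36 in RNA. In density 2 of the 6 were lower and 0 higher at 19 h, where 14.9% and 6.22% of all were. The lower ones were XRCC4 at -2.18 (counting SE 0.39) and XRCC5 at -1.24 (0.045), and PRKDC was at 0.31 in density. Of 36 tested genes of nucleotide excision, base excision and mismatch repair, 6 were lower in RNA (16.7%) and 2 higher (5.56%) at 19 h. Their median was -0.18. Among the lower ones were NEIL3, a glycosylase (7.17 to 0.032 FPKM), PARP2 (16.8 to 3.83) and MSH6, a mismatch sensor (34.9 to 8.92). The higher pair was DDB2, which went from 18.3 to 53.5 FPKM, and XPC, from 28.9 to 58.6 FPKM, both damage sensors of excision repair and known p53 targets.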

How the data were processed

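BJ fibroblasts were profiled by RNA-Seq and Ribo-Seq in 5 libraries per assay. Following the study's methods, Bowtie (version not given in the sources used here) was used by the authors to align reads to 1 protein-coding transcript per gene of Ensembl release 65. The authors kept uniquely aligned reads and deposited FPKM values. The processing notes name hg19. Reads shared by paralogs were thus lost. The table named for both assays holds 1 column per time and was read as RNA-Seq. The methods describe Ribo-Seq reads in coding sequences, whereas the deposited columns say total. Both tables used the same transcript length in 88.7% of 6890 transcripts, so reads outside coding sequences may be included. The study lists unequal shares of such reads for its nutlin-3a control, 6 h and 19 h Ribo-Seq libraries. A smaller share of reads started in frame there than in its other BJ libraries. The effect on density and TE changes was not tested. The study describes batch effects between sequencing runs, and the labels name no run.

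From these values log2 changes from control to treated library were computed within each assay with a floor of 1 FPKM, a filter of at least 5 FPKM in 1 library of each assay and a call at 2-fold, in Python 3.11.15 with numpy 2.4.6, pandas 2.3.3, scipy 1.17.1 and matplotlib 3.10.9. The filter on RNA-Seq alone and the changes without a floor were chosen after seeing the data. Members and lists were chosen with earlier results of these data known. Named genes were all members, CDKN1A and MDM2, and the 4 lowest and up to 2 highest tested genes of each other list by RNA change at 19 h. Some genes that this rule names are not reported here. FPKM keep 3 decimals, and transcript lengths, totals and whole reads were recovered from their spacing for 99.4% of transcripts in both tables and 35 of 36 members. The steps were tested on simulated data. PCR copies could not be told apart, so counting SE cover counting only. Alternatives changed the floor, filter, baseline, centring and call. No per-sample column was left out.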

Additional observations from a re-analysis of the deposited data

Results flagged for a closer look

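TE of RAD51C moved in opposite directions at neighbouring times. Its change was 0.80 (counting SE 0.27) at 4 h and -0.59 (0.27) at 6 h, while its Ribo-Seq level was 8.95 and 6.98 FPKM and its RNA 2.72 and 5.57 FPKM. Both lie below the 2-fold call, each rests on 1 library per assay, and no test of the difference was possible.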

How the results depend on the processing

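Each group was 1 library, so no replicate could be left out, and no library-to-library error is known. No paired analysis was possible because each group held a single library. With the filter on both assays the main counts of lower members at 2, 4, 6 and 19 h were 0, 1, 10 and 13 of 15 in RNA. The shares of all tested were 0.0143%, 0.684%, 5.39% and 7.1%. In density the main counts were 0, 1, 11 and 14 (0.128%, 0.527%, 8.04% and 14.9% of all). TE changed in 0, 0, 4 and 5 (1.2%, 0.998%, 5.74% and 6.14%). Centring on the median of all tested genes kept every count within 1.5 times. A pseudocount of 1 FPKM gave 0 lower at 4 h in RNA (0.513% of all) and in density (0.285%). It gave 2 and 3 TE changes at 6 and 19 h (4.11% and 4.45%). A floor of 5 FPKM gave 0 and 7 in RNA at 4 and 19 h (0.499% and 6.1% of all). In density it gave 0, 2 and 2 at 4, 6 and 19 h (0.271%, 5.86% and 11.2%). Few members exceed that floor. No filter (32 members) gave 4, 21 and 26 in RNA at 4, 6 and 19 h (0.853%, 4.88% and 6.3% of all). In density it gave 2, 19 and 23 at these times (0.879%, 7.14% and 12.4%). In TE it gave 8 and 13 at 6 and 19 h (6.55% and 6.66% of all). Most of these TE calls at 19 h were rises set by the floor of 1 FPKM. BRCA2 was at 1.80 with the floor and 0.08 without it, and BRIP1 at 1.51 and -1.31. A mean of at least 5 FPKM left 6 members. Of these, 5 and 5 were lower in RNA at 6 and 19 h (4.75% and 6.4% of all). In density 5 and 6 were lower (7.34% and 13.9%), and in TE 2 and 3 changed (5.5% and 5.83%). A mean of at least 20 FPKM left 1 member, UBE2T. It counted 0, 1 and 1 in RNA at 4, 6 and 19 h (0.155%, 3.68% and 5.92% of all). In density the counts were the same (0.0774%, 6.16% and 14.7%). In TE they were 1 and 1 at 6 and 19 h (5.73% and 7.47%). The 2 h library as baseline gave 1 and 3 TE changes at 6 and 19 h (2.14% and 2.54% of all). The sliding cut-off of local SDs gave 3 and 7 in RNA at 4 and 19 h (2.85% and 4.89% of all). In density it gave 1, 7 and 7 at 2, 6 and 19 h (1.44%, 4.52% and 5.13%). In TE it gave 1 at 4 h, where 12.6% of all were called. A 1.5-fold call gave 7 in RNA at 4 h (3.58% of all tested), 1 and 2 in density at 2 and 4 h (2.72% and 3.26%), and 3, 7 and 8 in TE at 4, 6 and 19 h (9.95%, 25.6% and 24.6%). Chosen after seeing the data, the filter on the assay alone gave 5, 20 and 23 of 28 in RNA at 4, 6 and 19 h, and no floor gave 3 TE changes at 19 h. One called value of a single member changed sign, TE of MRE11A at 6 h, at 0.56 with the floor of 5 FPKM against -1.13. The cause of these differences was not tested, apart from the number of members that a filter left and the values that the floor set.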
